A study of Rattus norvegicus with 8 samples.

Results

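The genes described here are Klhl40, Klhl41, Lmod1, Lmod2, Lmod3, Neb and Nebl, which encode proteins that build or stabilize the thin filaments of muscle. They were chosen by their values in these same hearts, where Klhl40 stood far lower and Lmod3 higher after doxorubicin, so their differences between the groups are a description. No p-value is given for them, and how many were called in the fit over all probe sets is stated as a count from which nothing is read. All probe sets annotated with 1 of these symbols alone were taken. Of the 7 genes, 6 had such a probe set, of 14217 genes in the whole table, and they were read by 9 of 31042 probe sets. Nebl had no probe set of its own symbol and is not analysed here.

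The study measured total RNA of isolated hearts of male Wistar rats (about 300 g) on Affymetrix arrays, with 1 array per heart. Both groups were excised hearts fed through the aorta in a Langendorff apparatus without recirculation for 2 h. The perfusate held no drug in 4 control hearts and 2 µM doxorubicin, an anthracycline that intercalates into DNA and poisons topoisomerase II, in 4 others. Each group's hearts are labelled as biological replicates, with no age given, and no unperfused heart is among the samples used here.

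A thin filament is an actin strand coated with tropomyosin and troponin. Leiomodins, relatives of the capping protein tropomodulin, nucleate actin and let the pointed end of the filament grow. Nebulin runs along the filament in skeletal muscle, and nebulette is its shorter cardiac relative at the Z-disc. KLHL40 and KLHL41 are muscle proteins of the BTB-kelch family. Most proteins of this family bring substrates to the ubiquitin ligase CUL3, but KLHL40 is known to protect LMOD3 and nebulin protein from degradation in skeletal muscle. Loss of KLHL40, KLHL41, LMOD3 or nebulin causes nemaline myopathy in humans, and loss of LMOD2 causes dilated cardiomyopathy. Muscle genes of this kind are commonly regulated by the transcription factors SRF and MEF2.

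The start regions of the genes whose groups stood apart are shown because these genes differed in direction. Each sequence is from RefSeq (GRCr8) and runs from 250 bases before to 50 bases after an annotated start, and capitals mark a match to the MEF2 site. Lmod3 has 2 entries, for different transcript starts.
Klhl40 (chr8:130318543-130318842, plus strand): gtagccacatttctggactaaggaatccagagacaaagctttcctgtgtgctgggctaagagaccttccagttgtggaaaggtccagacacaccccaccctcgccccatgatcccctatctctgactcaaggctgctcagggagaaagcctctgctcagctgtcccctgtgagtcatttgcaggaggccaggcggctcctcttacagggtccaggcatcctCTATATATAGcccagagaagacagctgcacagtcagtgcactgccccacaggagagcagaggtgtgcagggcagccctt
Klhl41 (chr3:74841868-74842167, plus strand): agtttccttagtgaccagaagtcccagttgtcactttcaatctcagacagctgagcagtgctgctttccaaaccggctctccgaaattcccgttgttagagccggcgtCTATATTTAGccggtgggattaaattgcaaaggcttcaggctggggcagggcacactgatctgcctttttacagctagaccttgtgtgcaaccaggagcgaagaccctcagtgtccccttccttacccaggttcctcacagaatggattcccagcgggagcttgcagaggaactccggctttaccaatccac
Lmod2 (chr4:54032724-54033023, plus strand): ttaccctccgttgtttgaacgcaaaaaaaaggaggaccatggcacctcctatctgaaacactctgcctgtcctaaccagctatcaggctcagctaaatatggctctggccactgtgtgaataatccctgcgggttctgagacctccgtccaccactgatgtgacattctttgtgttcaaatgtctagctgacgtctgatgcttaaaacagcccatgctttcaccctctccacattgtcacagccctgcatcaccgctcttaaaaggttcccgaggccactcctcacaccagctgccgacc
Lmod3, start 1 (chr4:131415362-131415661, minus strand): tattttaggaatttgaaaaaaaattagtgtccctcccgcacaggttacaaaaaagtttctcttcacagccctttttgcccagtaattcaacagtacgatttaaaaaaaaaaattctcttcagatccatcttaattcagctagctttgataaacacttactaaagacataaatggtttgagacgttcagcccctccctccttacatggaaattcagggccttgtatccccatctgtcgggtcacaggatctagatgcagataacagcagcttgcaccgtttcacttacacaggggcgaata
Lmod3, start 2 (chr4:131414889-131415188, minus strand): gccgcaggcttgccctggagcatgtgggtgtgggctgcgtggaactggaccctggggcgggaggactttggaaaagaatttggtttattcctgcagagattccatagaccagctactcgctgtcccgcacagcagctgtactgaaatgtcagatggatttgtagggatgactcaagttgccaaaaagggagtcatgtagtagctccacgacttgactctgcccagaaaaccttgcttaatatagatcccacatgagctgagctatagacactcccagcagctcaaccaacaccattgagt

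The letters of 5 motifs were searched on both strands in the 7 entries that RefSeq gave for 6 of the 7 genes (Lmod1 is not among them). A MEF2 site lay in the Klhl40 entry at positions -29 to -20 (CTATATATAG) and in the Klhl41 entry at -142 to -133 (CTATATTTAG), counted from the start as 1 with no 0. It lay in no other entry of these genes, while 3.29% of all 33469 entries of this length hold one. Neither match overlapped a match of another motif searched. The CArG box, the motif of SRF, was matched by the Nebl entry only (1.64% of all entries). All 7 entries held CANNTG, the E-box of muscle bHLH factors, and so did 72.1% of all entries. None of the 7 held CATTCC, the motif of TEAD factors, or TATAAA, each found in 14.2% of all entries. Only these exact letters were searched. The Klhl40 match CTATATATAG also holds TATATATA, a TATA-like run that the search for TATAAA does not count. A match is a match of letters, and no binding was measured in these hearts.

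The defining genes of ventricular muscle were bright in all 8 hearts. The summed intensity of 9 measured markers, among them Myh6, Myl2 and Tnnt2, was 101167 to 103364 in control and 101468 to 105403 in doxorubicin hearts. Of 15 measured skeletal muscle markers, Myh2, Myh4, Actn3 and Myod1 lay among the dimmest 25% of probe sets (mean under 4.16 log2). Tnnt3, Pvalb, Myog, Tnnc2 and Mybpc1 lay little above that level (means 4.18 to 4.34 log2). Myh1 was bright (10.49 to 11.47 log2) and made up most of the sum of the list, with Mylk2 next (mean 7.87 log2). That sum overlapped between groups, at 2095 to 3121 and 2930 to 3481. The sums of 8 smooth muscle markers (1595 to 2688 and 1561 to 2508) and of 5 atrial markers (1242 to 10307 and 1471 to 20405) overlapped as well. The same held for 5 endothelial (2792 to 3044 and 2689 to 3137), 7 fibroblast (9857 to 15923 and 13315 to 17538), 6 macrophage (422 to 535 and 490.0 to 636) and 6 adipocyte markers (3901 to 4604 and 4032 to 6628). No marker of these 8 lists passed limma at an adjusted p of 0.05 (1 lower and 2 higher at an unadjusted p under 0.05). Single hearts still differed widely in some markers, among them the atrial ones other than Dhrs9, which spanned 4.50 to 4.92 log2. The adipocyte marker Ucp1 read 9.54 log2 in doxorubicin heart 4 and 4.27 to 6.62 log2 in the other hearts. Adipoq (8.04 against 4.52 to 6.08 log2), Plin1 (5.83 against 3.60 to 4.03 log2) and Cidea (10.98 against 10.37 to 10.69 log2) were also highest there. Lep stayed within 4.03 to 4.24 log2, but its mean lay among the dimmest 25%, as did that of Plin1. Fabp4, the brightest of that list, spanned 11.26 to 11.83 log2. Among smooth muscle markers Tagln spanned 8.35 to 9.66 log2 and Smtn 8.24 to 8.60 log2. The hybridization control level, from bacterial and phage transcripts added to each labelled sample, was 10.32 ± 0.17 log2 on the control and 10.02 ± 0.08 log2 on the doxorubicin arrays (SD, n = 4; exact permutation test, two-sided p = 0.0286, the smallest 4 against 4 can give). Its part in the differences was not tested beyond a fit with this level as a covariate.

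Klhl40 stood second from the bottom of the 14217 genes by its difference. These are bulk tissue values, in which fewer cells of a type and less RNA per cell cannot be told apart. Its probe set (1395851_at) read 10.60, 9.49, 9.91 and 10.06 log2 in control hearts 1 to 4 and 6.52, 6.81, 6.62 and 6.78 log2 in doxorubicin hearts 1 to 4. The lowest control heart stood 2.68 log2 above the highest doxorubicin heart. The means were 10.02 ± 0.46 and 6.68 ± 0.14 log2 (SD, n = 4 each), a difference of -3.33 (SE 0.19), or 10.1-fold less signal. What was left was 9.93% of the control signal and still above the dimmest 25% of probe sets. The spread between control hearts was 3.30 times that between treated hearts. The control hearts ranked in Klhl40 in the reverse order of their atrial marker sums (1242 in heart 1, 10307 in heart 2, 6170 in heart 3 and 1260 in heart 4). The sums of the other cell types did not give this order, and hearts 1 and 4 were close in the atrial sum. Among doxorubicin hearts, with sums of 5964, 3892, 1471 and 20405, Klhl40 did not follow that order, and the part of atrial tissue was not tested further.

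Klhl41, whose kelch protein binds nebulin and NRAP in muscle, had a smaller difference than Klhl40; the 2 differences were not tested against each other. It read 10.05, 9.82, 9.63 and 9.98 log2 in control hearts 1 to 4 and 9.56, 9.32, 9.29 and 9.48 log2 in doxorubicin hearts. All 4 treated hearts were below all control hearts, but the nearest pair was only 0.06 log2 apart. The means were 9.87 ± 0.19 and 9.41 ± 0.13 log2 (SD, n = 4), a difference of -0.46 (SE 0.10), or 72.8% of the control signal.

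**Figure D1:**
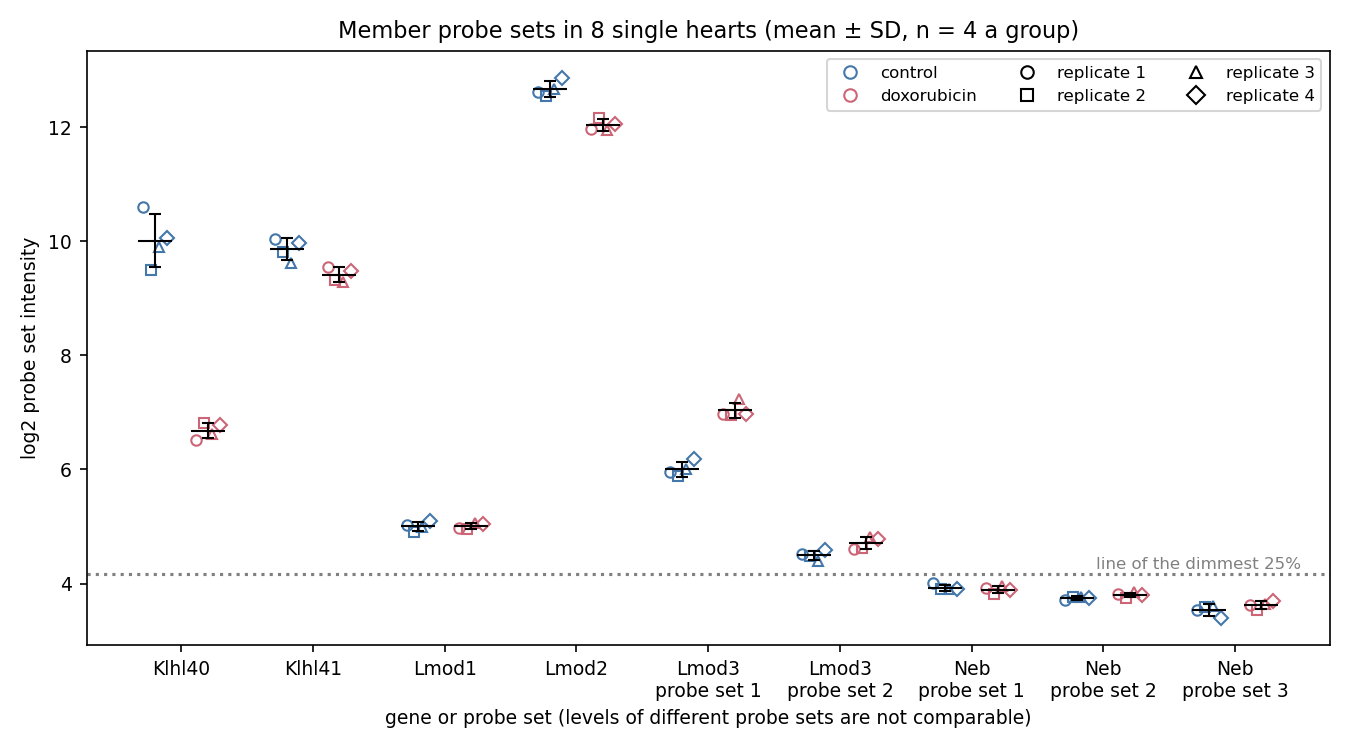
Log2 probe set intensity (y axis) of the 9 probe sets of the 6 measured genes (x axis) in 4 control (blue) and 4 doxorubicin hearts (red). Symbols mark single hearts, black bars the mean ± SD, and the dotted line the level of 4.16 log2 that bounds the dimmest 25%. Levels of different probe sets are not comparable. Klhl40 has the widest gap between groups (2.68 log2), and the 3 Neb probe sets lie under the line.

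The leiomodins differed among themselves. Lmod2, the main leiomodin of heart muscle, was lower in the doxorubicin hearts. It read 12.62, 12.55, 12.67 and 12.87 log2 in control hearts 1 to 4 and 11.97, 12.17, 11.96 and 12.06 log2 in doxorubicin hearts. Each treated heart lay below each control heart, with a gap of 0.38. The mean went from 12.68 ± 0.14 to 12.04 ± 0.10 log2 (SD, n = 4), a difference of -0.64 (SE 0.08), or 64.3% of the control signal.

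Lmod3, the leiomodin best known from skeletal muscle, differed in the opposite direction. Its brighter probe set (1377563_at) read 5.96, 5.88, 6.0 and 6.19 log2 in control hearts 1 to 4 and 6.97, 6.95, 7.24 and 6.98 log2 in doxorubicin hearts. The groups were 0.76 log2 apart at their nearest hearts. The means were 6.01 ± 0.13 and 7.04 ± 0.14 log2 (SD, n = 4), a difference of 1.03 (SE 0.09), or 2.04-fold more signal. The dimmer probe set (1394187_at) read 4.51, 4.49, 4.39 and 4.59 log2 in control and 4.60, 4.63, 4.82 and 4.78 log2 in doxorubicin hearts. Its groups were also apart, by only 0.01 log2, and its difference was 0.21 (SE 0.07). The probe sets of Lmod3 thus shared a direction and not a size, and the mean of both differed by 0.62 (SE 0.07).

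Lmod1, the leiomodin of smooth muscle, read 5.02, 4.91, 4.99 and 5.09 log2 in control and 4.98, 4.95, 5.07 and 5.04 log2 in doxorubicin hearts. The groups overlapped, and the difference was 0.01 (SE 0.06). Over the same hearts the smooth muscle marker Myh11 spanned 8.25 to 9.41 log2 and another, Smtn, 8.24 to 8.60 log2, whereas Lmod1 stayed within 4.91 to 5.09 log2. The Lmod1 probe set lay near the median of all probe set means (4.92 log2). Without detection calls, its values do not tell how well it reports Lmod1 RNA.

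Neb, which encodes nebulin, was read by 3 probe sets that all lay among the dimmest 25%. The brightest of them spanned 3.90 to 4.01 log2 in control and 3.82 to 3.95 log2 in doxorubicin hearts, and its difference was -0.04 (SE 0.06). The others differed by 0.05 (SE 0.05) and 0.09 (SE 0.07), and in all 3 the groups overlapped. At such levels, and without detection calls, these values do not tell whether nebulin RNA was present.

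**Figure D2:**
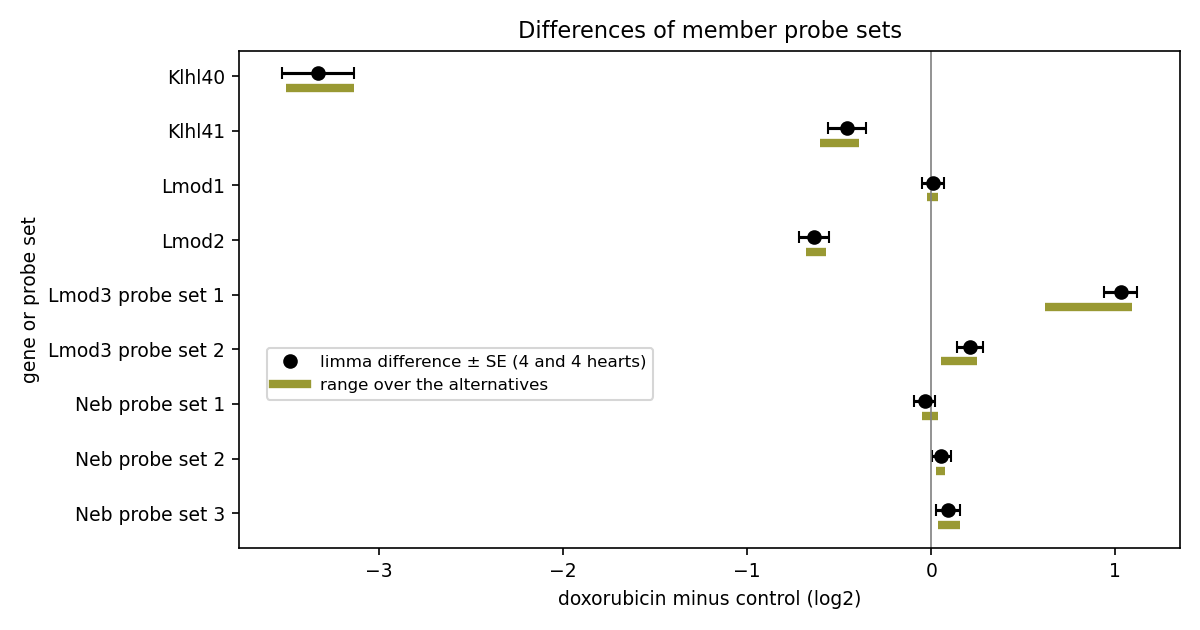
Difference between doxorubicin and control hearts (x axis, log2) for each probe set (y axis). Points with bars are limma differences ± SE over 4 and 4 hearts, and the olive bars span the values under the alternative settings. Klhl40 lies at -3.33, Klhl41 and Lmod2 at -0.46 and -0.64, the Lmod3 probe sets at 1.03 and 0.21, and Lmod1 and Neb near 0, and the low end of the Lmod3 bar (0.62) is the mean of its probe sets.

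In the limma fit over all probe sets, 3 of the 9 probe sets had an adjusted p under 0.05, Klhl40 and Lmod2 lower and the brighter Lmod3 probe set higher. Of all probe sets 2.21% did, 1.52% lower and 0.689% higher. Klhl41 was a further one in 6 of 18 alternatives, which were repeated quantile normalization, leaving out the dimmest 25%, an intensity trend, the replicate block, the mean of a gene's probe sets and leaving out control heart 3. The groups did not overlap for 5 of the 9, with 3 lower and 2 higher, against 8.55% of all probe sets. Since this contrast chose the genes, these counts are no evidence about them. With the hybridization control level as covariate, only Klhl40 had an adjusted p under 0.05. The differences were then -3.40 (SE 0.34) for Klhl40, -0.67 (SE 0.14) for Lmod2, 0.98 (SE 0.16) for the brighter and 0.05 (SE 0.11) for the dimmer Lmod3 probe set.

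The genes most like Klhl40 and Lmod3 over the 8 hearts were found by the root mean square difference of log2 values centred on the control mean. Nearest to Klhl40 were the growth-arrest gene Gadd45g (0.325 log2), the LIM-domain cofactor gene Lmcd1 (0.492), the orphan nuclear receptor gene Nr4a3 (0.492), the histone H4 gene H4cl1 (0.497) and Mustn1 (0.622), a small nuclear protein gene of muscle and skeleton. Their differences were -3.43, -2.70, -2.78, -3.02 and -2.47. The H4cl1 mean of doxorubicin hearts (4.0 log2) lay among the dimmest 25%. As for Klhl40, control heart 1 lay above and control heart 2 below the control mean for Gadd45g, Lmcd1, Nr4a3 and Mustn1, but not for H4cl1. For Gadd45g control heart 2 was close to the mean, at -0.02. These genes were picked by likeness over the same hearts, so a shared order of hearts is no separate result.

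Nearest to Lmod3 were Pdp2 (0.192 log2), which encodes a phosphatase that activates pyruvate dehydrogenase, and Pdpr (0.197), which encodes a regulatory subunit of such a phosphatase. Dnah7, a dynein gene (0.232), Gzmb, the granzyme B gene (0.272), and LOC100909396 (0.278) followed. They were higher in doxorubicin hearts by 0.82, 0.97, 0.91, 0.78 and 0.84. Doxorubicin heart 3 was the highest of its group for Lmod3, Pdp2, Pdpr and Dnah7, but not for Gzmb and LOC100909396. This likeness too follows from how the genes were picked.

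**Figure D3:**
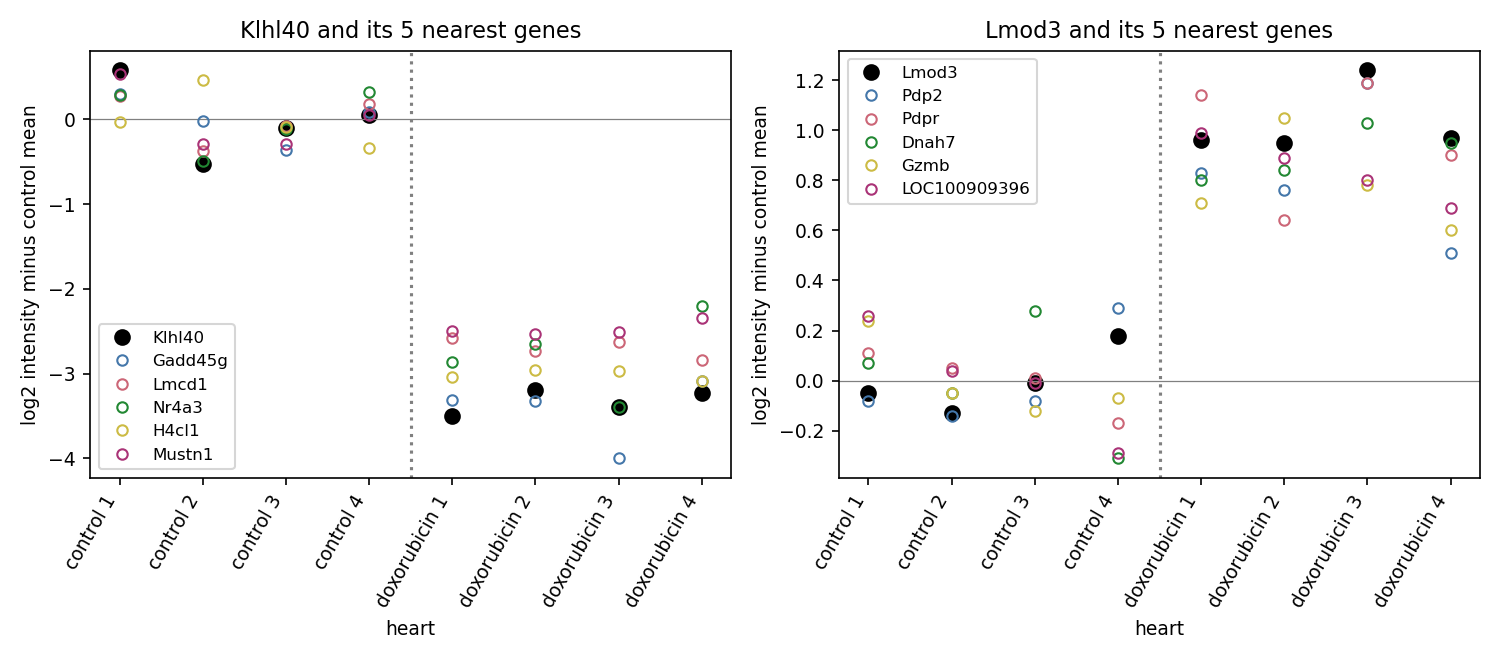
Log2 intensity minus the control mean (y axis) in each heart (x axis) for Klhl40 (left) and Lmod3 (right), in black, with the 5 genes nearest to each as open circles. On the left the doxorubicin hearts lie between -4.0 and -2.20 relative to the control mean, and those on the right lie 0.51 to 1.24 above it.

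The comparison of doxorubicin with control was then read for 133 other genes in 6 lists around these proteins, each at its brightest probe set (some genes are in more than 1 list). The lists were drawn up with earlier results of these data known, so their counts are a description. With limma, 8 of the 133 genes fell and none rose at an adjusted p under 0.05 (17 were lower and 12 higher at an unadjusted p under 0.05). Of all genes 2.97% passed, 2.17% lower and 0.802% higher. Other probe sets of list genes that passed are given with their lists, and their genes (Tpm1, Fhl1, Ankrd1 and Rbx1) were singled out after their values were seen. The median difference of the 133 genes was -0.01, against 0.0063 over all genes.

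Among 26 measured (of 30 listed) genes of the thin filament and its caps, 1 fell and none rose, with 2 higher at an unadjusted p below 0.05 and a median of 0.01. Xirp1, the gene of Xin, which binds actin, fell from 11.49 ± 0.34 to 9.41 ± 0.31 log2 (SD, n = 4), a difference of -2.07 (SE 0.19, limma adjusted p = 0.000364). The 4 control hearts (11.17 to 11.79 log2) were all above the doxorubicin hearts (8.98 to 9.71 log2). The barbed-end capping genes Capza1 (0.16, SE 0.06) and Capzb (0.13, SE 0.06) did not pass. Neither did the formin gene Daam1 (-0.28, SE 0.12), with a limma adjusted p of 0.211 to 0.365 for these genes. Daam1 stood at -0.16 without doxorubicin heart 3. Its other probe sets stood at -0.37 (SE 0.09) and -0.06 (SE 0.07) over all hearts and did not pass. A dimmer probe set of the tropomyosin gene Tpm1 rose by 1.10 (SE 0.22, limma adjusted p = 0.0306), while its brightest stood at 0.07 (SE 0.05) and its others at -0.07 to 0.07.

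Of 25 measured (of 27 listed) genes of the Z-disc and of nebulin partners, 3 fell and none rose, with none higher even at an unadjusted p below 0.05, and 20 had a negative difference, with a median of -0.16. Flnc, the gene of filamin C, which cross-links actin at the Z-disc, read 10.49, 9.72, 9.81 and 10.11 log2 in control and 8.21, 8.06, 8.23 and 8.29 log2 in doxorubicin hearts. It fell by 1.83 (SE 0.15, limma adjusted p = 0.000209), and its other probe set also fell, by 1.44 (SE 0.18). Myot, which encodes the Z-disc protein myotilin, fell by 1.2 (SE 0.14) and Csrp3, which encodes muscle LIM protein, by 0.31 (SE 0.05). Csrp3 did not pass with the replicate number as a block (limma adjusted p = 0.0648). Dimmer probe sets of Fhl1, a LIM-domain gene, and of Ankrd1, an ankyrin-repeat gene, fell by 1.18 (SE 0.16) and 0.27 (SE 0.06), but their brightest ones, at -0.20 (SE 0.08) and -0.23 (SE 0.06), did not pass. Nrap, a nebulin-repeat protein gene of growing myofibrils whose protein binds KLHL41, stood at -0.35 (SE 0.08, limma adjusted p = 0.0511), and passed without control heart 3 (-0.41, adjusted p = 0.0355). With the hybridization covariate Flnc alone of the list passed.

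Of 39 measured (of 48 listed) kelch-repeat BTB genes other than Klhl40 and Klhl41, 1 fell and none rose, with 3 higher at an unadjusted p below 0.05 and a median of -0.01. Enc1, whose product binds actin, fell by 0.76 (SE 0.11, limma adjusted p = 0.0075), but its other 3 probe sets stood at -0.06, -0.05 and 0.04. The muscle kelch genes Klhl38 (0.36, SE 0.15) and Klhl30 (0.28, SE 0.08) did not pass, and neither did Klhl42 (0.23, SE 0.07). Klhl30 passed without control heart 2 (0.35, limma adjusted p = 0.0251), which raised the count of the list to 2.

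Among 22 measured (of 23 listed) genes of the CUL3 ligase and of the NEDD8 pathway that activates it, 1 fell and none rose, with 7 higher at an unadjusted p below 0.05 and a median of 0.09. Dcun1d1, a ligase of NEDD8 to cullins, fell by 0.60 (SE 0.11, limma adjusted p = 0.0223), while its other probe sets stood at 0.01 and -0.21. It did not pass without any one of control heart 3, control heart 4, doxorubicin heart 2 and doxorubicin heart 3 (limma adjusted p 0.0616 to 0.0715). Its relative Dcun1d2 (0.33, SE 0.07, limma adjusted p = 0.0596) passed without control heart 2 (0.37) or doxorubicin heart 4 (0.38). A dimmer probe set of Rbx1, the RING subunit of cullin ligases, fell by 0.77 (SE 0.10, limma adjusted p = 0.0039), but its brightest, at -0.23 (SE 0.09), did not pass. Nae1, a subunit of the NEDD8-activating enzyme, stood at 0.24 (SE 0.07) and the signalosome gene Cops8 at 0.16 (SE 0.05).

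None of the 9 other nemaline myopathy genes measured (of 10 listed) passed in limma, and none did at an unadjusted p under 0.05; the median was -0.01. The skeletal actin gene Acta1 stood at -0.19 (SE 0.24), the tropomyosin gene Tpm2 at -0.37 (SE 0.30), Tnnt3 at -0.09 (SE 0.06) and Ryr3 at -0.11 (SE 0.11). These values hung on single hearts. Acta1 ranged from -0.40 without control heart 4 to -0.02 without control heart 3, and Tpm2 from -0.65 without doxorubicin heart 4 to -0.19 without control heart 3. Tnnt3 stood at -0.05 without control heart 1. The sign of Acta1 turned with the hybridization covariate and that of Ryr3 without control heart 1.

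Of 18 measured (of 20 listed) regulators of SRF and MEF2, 2 fell and none rose, with none higher even at an unadjusted p below 0.05 and a median of -0.11. Abra, which encodes an actin-binding activator of SRF signalling, read 12.48, 12.22, 12.17 and 12.24 log2 in control and 10.42, 10.51, 9.62 and 9.69 log2 in doxorubicin hearts. It fell by 2.22 (SE 0.20, limma adjusted p = 0.000338). Hdac5, a histone deacetylase that represses MEF2, fell by 0.91 (SE 0.12, limma adjusted p = 0.0035), and its other probe set stood at -0.17 (SE 0.10). Myocd, the SRF coactivator myocardin, stood at -0.57 (SE 0.13) and Hdac7 at -0.16 (SE 0.07), and neither passed. With the hybridization covariate no gene of this list passed, Abra then at -2.08 (limma adjusted p = 0.0674).

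**Figure D4:**
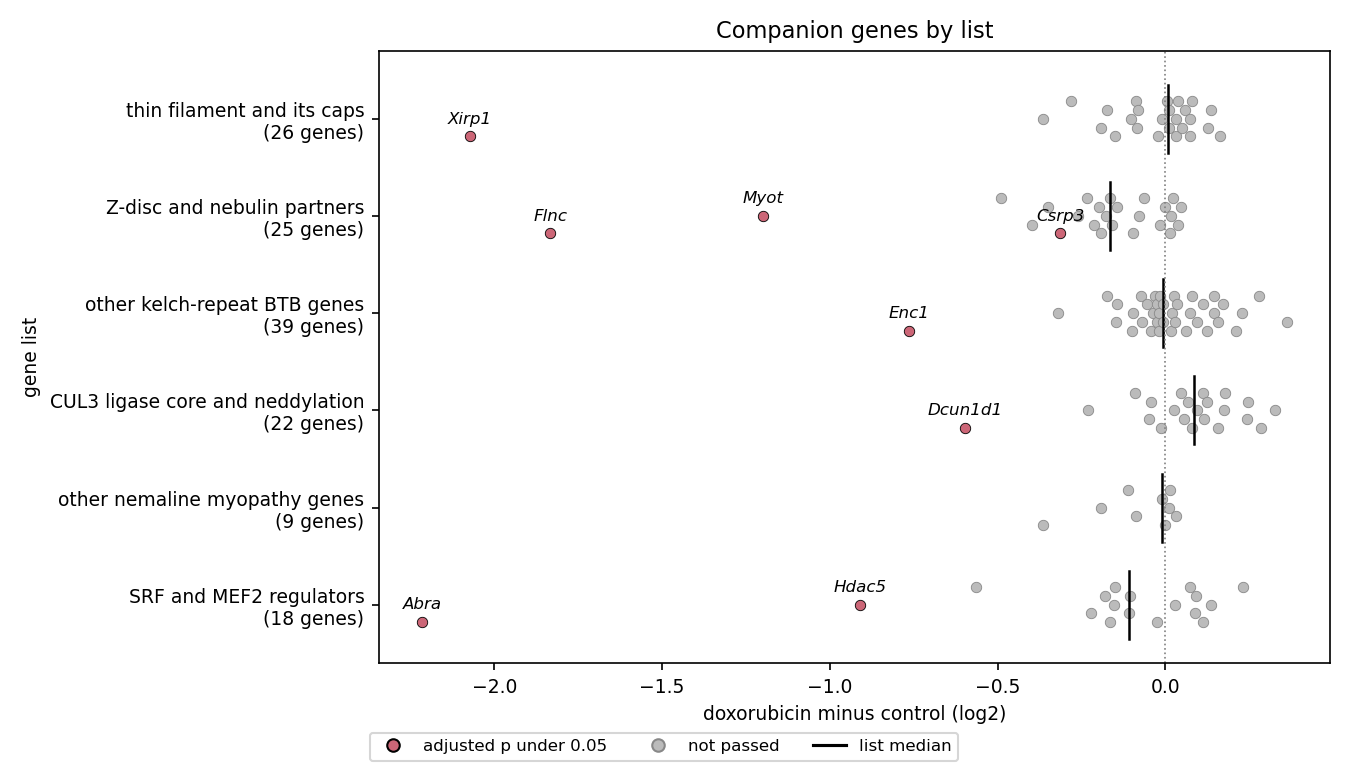
Difference between doxorubicin and control hearts (x axis, log2) for each measured gene of the 6 lists (y axis), at its brightest probe set. Red points passed at a limma adjusted p under 0.05, grey points did not, and black bars mark list medians. The 8 genes that passed are all lower, from -2.22 (Abra) to -0.31 (Csrp3), while the list medians lie between -0.16 and 0.09.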

How the data were processed

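RNA of 8 hearts (4 control, 4 doxorubicin) was hybridized to 1 array each. The deposited table holds 1 intensity per probe set and array, computed by the authors with RMA (background correction, normalization over arrays, probe summary), per the submitters' processing notes. The RMA version is not given in the sources used here. The values were linear (array medians 29.9 to 31.0), so log2 was taken with no offset. RMA makes array distributions alike, so a shift of most transcripts would not show, and the values carry no detection calls. Arrays have no depth, so their number limits the precision.

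After leaving out 57 control probe sets, 31042 were fitted with limma 3.58.1 in R 4.3.3 (lmFit, eBayes, no covariate), with two-sided p-values adjusted by Benjamini-Hochberg over all of them and called under 0.05. The annotation named 1 gene for 20826 probe sets, more than 1 for 436 and no gene for 9780. Symbols were updated by gene ID through RefSeq (GRCr8), which held 20758 of the 20826. In the lists a gene stands for its brightest probe set (mean of 8 arrays). The fit was tested on simulated data.

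The members and lists were chosen with earlier results of these data known. Named were all member probe sets, up to 4 genes per list (called ones first, by smallest p), and the 5 genes nearest to Klhl40 and to Lmod3. Alternatives were other normalizations, a filter, other variance models, array weights, an offset of 16, a replicate block, a covariate, the mean of a gene's probe sets and leaving out each array.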

Additional observations from a re-analysis of the deposited data

Results flagged for a closer look

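In 6 of 66 groups of 4 hearts, over 33 probe sets of named genes, 1 heart stood apart from the other 3 beyond Dixon's 95% limit. Chance alone gives about 1 in 20 such groups. For the brighter Lmod3 probe set it was doxorubicin heart 3, at 7.24 log2 against 6.95 to 6.98 log2. For the brightest Neb probe set it was control heart 1, at 4.01 log2 against 3.90 to 3.91 log2, among the dimmest 25% of probe sets. Enc1 stood at 7.76 log2 in control heart 3 (7.56 to 7.58 log2 in the others) and Daam1 at 8.98 log2 in control heart 2 (8.77 to 8.81 log2). Tpm2 stood at 9.31 log2 in doxorubicin heart 4 against 8.11 to 8.22 log2. In its group this heart had the highest atrial, skeletal muscle, smooth muscle, fibroblast, macrophage and adipocyte marker sums, whose part was not tested. Hdac7 stood at 5.83 log2 in doxorubicin heart 2 against 5.62 to 5.64 log2.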

How the results depend on the processing

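Klhl40 ranged from -3.51 to -3.14, Klhl41 from -0.60 to -0.39 and Lmod2 from -0.68 to -0.57 over 18 alternatives, all with the direction kept. For the brighter Lmod3 probe set the range was 0.87 (16 added before log2) to 1.09, also with the direction kept. The mean of both Lmod3 probe sets differed by 0.62. These same hearts chose the genes, so nothing is read from how many of their probe sets were called. That number (3 of 9) was 3 to 4 without single arrays and 1 with the hybridization control level as covariate. With that covariate the calls over all probe sets went from 687 to 92, over the list genes from 8 to 2, in the Z-disc list from 3 to 1, and to 0 in the kelch, CUL3 and SRF and MEF2 lists. The Z-disc list had 5 calls with an intensity trend or with 16 added before log2, and 6 with the mean of a gene's probe sets, under which the kelch list had 0. The CUL3 list had 2 calls with array weights. Without single arrays the calls over all probe sets were 397 (without doxorubicin heart 1) to 854 (without control heart 2), with 444 without control heart 3, 452 without doxorubicin heart 2 and 435 without doxorubicin heart 3. The kelch list had 1 to 2 calls and the CUL3 list 0 to 2 without single arrays. Acta1 turned to 0.29 with the hybridization covariate, and Ryr3 ranged from -0.17 to 0.0080 without single arrays. The cause of these shifts was not tested. The hybridization control level did not overlap between the groups (10.21 to 10.57 log2 on control and 9.97 to 10.13 log2 on doxorubicin arrays). A fit with this covariate therefore separates the level from the treatment poorly, and the SE of Klhl40 was 0.34 with it and 0.19 without it. With the replicate number as a block, 511 probe sets were called, 4 of them of the members, the CUL3 list had 0 calls, and the Z-disc list had 2, as Csrp3 did not pass (limma adjusted p = 0.0648). The deviations of same-numbered hearts had correlations of 0.19, 0.02, -0.12 and -0.21 over the 5000 most variable probe sets. Differently numbered hearts were not compared in this way, so whether the numbers pair the hearts stays undecided. The low signal of the Neb probe sets limits what can be said of that gene.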
